A study of Mus musculus with 4 samples.

Results

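The cytosolic ribosomal protein genes were chosen by name, as the array probes whose target name starts with Rpl or Rps and a digit, or is Rpsa, Rplp0, Rplp1 or Rplp2, leaving out the Rps6k kinases. This rule took 131 of 45281 probes, which stand for 76 genes, 46 of the large and 30 of the small ribosomal subunit. The cytosolic ribosome is built from ribosomal RNA and a fixed set of proteins, nearly all present in a single copy per particle, so cells make these proteins in matched amounts. Their mRNAs are among the most abundant of growing cells and start with a run of pyrimidines, the 5′ terminal oligopyrimidine or TOP motif, through which mTOR signalling sets their translation. Many of the functional genes have processed pseudogenes, and probe sequences were not used here, so a probe may read more than one copy.

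Total RNA of mouse embryonic stem cells, self-renewing cultured cells derived from the early embryo, was measured on Illumina MouseWG-6 v2 bead arrays. The aim was to compare ways of deriving such cells. Of the 2i-derived samples, 2i-RFP+ and 2i-RFP- were both made from strain C57/B6, were used at passage 5 and were run on 2 arrays each. Of the standard-derived lines, AFF204#21 was also C57/B6 and was used at passage 11, whereas R1 came from strain 129 and had reached passage 26, with 1 array for each line (the labels add the ending -A to both names). 2i usually names a medium with inhibitors of MEK and GSK3, and per the labels every line was grown on fibroblast feeders without 2i once derived. What RFP reports is not stated, and the arrays of both 2i-derived samples carry the stem 2imES#1 in their names, so a shared origin is possible. Passage number differed between the groups with no overlap and cannot be told apart from derivation, and strain differed within the standard-derived group. No label describes the samples as separate cultures. The p-values therefore cover the spread among these 4 samples and nothing wider.

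The promoters of the 4 X-linked members are shown because all 4 had higher values in the 2i-derived samples, although none passed the test, beside that of Rpl15, which carries a long pyrimidine run at its start, and that of Rpl3l, the muscle paralog with the lowest difference of all members. Each window runs from 60 bases before to 20 bases after the annotated start (RefSeq, GRCm38.p6, 5′ to 3′ on the gene's strand), with pyrimidine runs of at least 8 bases in capitals.
Rpl10 (chrX:74270756-74270835, plus strand): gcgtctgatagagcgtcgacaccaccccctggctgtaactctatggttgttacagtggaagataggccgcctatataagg
Rpl36a (chrX:134585594-134585673, plus strand): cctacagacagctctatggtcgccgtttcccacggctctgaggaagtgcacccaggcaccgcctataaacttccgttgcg
Rpl39 (chrX:37085203-37085282, minus strand): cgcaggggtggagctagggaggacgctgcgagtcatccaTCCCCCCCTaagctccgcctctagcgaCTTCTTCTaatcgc
Rps4x (chrX:102189372-102189451, minus strand): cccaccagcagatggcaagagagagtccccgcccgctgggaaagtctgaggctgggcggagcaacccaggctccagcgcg
Rpl15 (chr14:18270967-18271046, minus strand): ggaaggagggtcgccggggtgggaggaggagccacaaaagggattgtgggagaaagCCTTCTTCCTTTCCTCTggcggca
Rpl3l (chr17:24727766-24727845, plus strand): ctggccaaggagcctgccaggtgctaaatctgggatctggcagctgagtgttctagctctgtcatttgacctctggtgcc
Among the X-linked members only Rpl39 held such a run in this window, whereas Rpl10, Rpl36a and Rps4x held none. Of the 76 members 56 matched the RefSeq promoter table, with 67 windows of 300 bases. A pyrimidine run of at least 8 bases within 30 bases of the start, on the gene's strand, was found in 47.8% of the member windows and in 22.9% of all 32851 windows. CCGGAAG, letters of the ETS family motif, was found on either strand in 35.8% of member windows and 8.9% of all windows, and CTCTTTC in 31.3% and 8.2%. AAGATGGC, letters of the YY1 motif, was found in 10.4% and 2.7%, the E-box CACGTG in 9.0% and 7.2%, and TATAAA in 7.5% and 13.6%. The pyrimidine run can overlap CTCTTTC, and a match describes letters, not binding.

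Ribosomal protein probes were among the brightest on every array. Of the 100 brightest probes per array 40 or 41 were members, and members held 9.68% to 10.2% of the summed intensity on the 4 arrays of the 2i-derived samples, against 9.52% for AFF204#21 and 9.8% for R1. The median intensity of the large subunit probes was 22233, 22271, 20514 and 21575 on the arrays of 2i-RFP+ and 2i-RFP-, against 21434 for AFF204#21 and 20868 for R1. For the small subunit it was 28640, 28088, 27505 and 27415, against 24757 and 25003, so that both standard-derived arrays lay below all 4 arrays of the 2i-derived samples before normalization. After normalization, and over the brightest detected probe of each gene in place of all member probes, the small subunit medians no longer parted the groups. The median log2 level of the 30 small subunit genes was 15.12 in 2i-RFP+ and 15.15 in 2i-RFP-, against 15.07 in AFF204#21 and 15.16 in R1. That of the 46 large subunit genes was 14.892 and 14.893 in 2i-RFP+ and 2i-RFP-, against 14.878 in AFF204#21 and 14.862 in R1. Here both 2i-derived samples lay higher, by a small amount, whereas the large subunit medians before normalization overlapped.

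**Figure D1:**
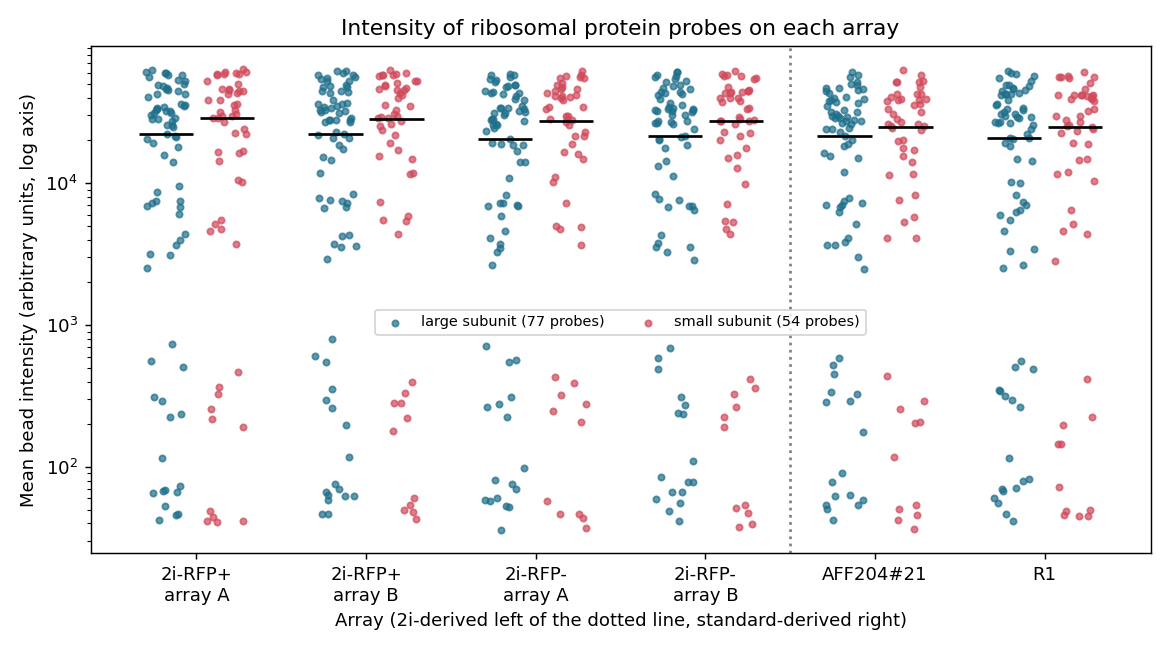
Intensity of each of the 131 ribosomal protein probes (vertical log axis, arbitrary units) on each of 6 arrays (horizontal axis), with large subunit probes in blue, small subunit probes in red and black bars at the medians. The small subunit median was 27415 to 28640 on the 4 arrays of the 2i-derived samples, against 24757 and 25003 on those of AFF204#21 and R1.

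Of the 131 probes 120 passed the filter on dim probes, that is detection in at least 2 of the 4 samples, or 91.6% against 44.3% of all probes. The 11 that did not pass belonged to Rpl17, Rpl18, Rpl23, Rpl37, Rplp2, Rps18, Rps20, Rps23, Rps24 and Rps6, and each of these genes had another probe that passed, so all 76 genes were tested. Each gene was represented by its brightest passing probe. For Rpl6, a large subunit protein, the only probe stayed near background, with 5.35 and 5.44 log2 units in 2i-RFP+ and 2i-RFP-, against 5.55 and 5.18 in AFF204#21 and R1. Its values say little of the gene. Between 19143 and 19865 probes were detected per array, and 9 of 9 stem cell markers were measured, with the pluripotency factor Pou5f1 at 13.26 and 13.28, against 13.17 and 13.31.

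Between the 2i-derived and the standard-derived samples no ribosomal protein gene passed the test, and most had differences near 0. The members' log2 differences had a median of 0.006 and a median size of 0.06, against -0.02 and 0.22 over all 14569 genes tested, and 52 of 76 members lay within 0.1 log2 units of 0. By limma 0 of 76 members were called at an adjusted p under 0.05, where 0.165% of all genes were called. At an unadjusted p under 0.05 there were 7 members, or 9.21% against 20.9% of all genes, and they were Rpl10, Rpl3, Rpl30, Rpl39, Rpl3l, Rpl8 and Rps4x. With every probe fitted on its own, 0 of 120 member probes were called (0.24% of all probes) and 15 had an unadjusted p under 0.05, or 12.5% against 20.9% of all probes. The groups did not overlap for 36 of 76 members, or 47.4% against 55.7% of all genes. In 20 of these the 2i-derived samples were higher (26.3% against 26.0%) and in 16 lower (21.1% against 29.6%).

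The median of either subunit lay close to 0. The large subunit genes had a median log2 difference of -0.001, with 21 of 46 above 0, and the small subunit genes one of 0.015, with 18 of 30 above 0. With median scaling in place of quantile normalization these medians were 0.057 and 0.088, so the sign of the large subunit median depends on the scaling. By single probes, several of which read the same gene, 32 of 49 small and 29 of 71 large subunit probes lay above 0. Without overlap, 38.8% of small subunit probes were higher and 14.3% lower in the 2i-derived samples. For the large subunit these were 16.9% and 26.8%, and for all probes 26.7% and 28.8%. By genes, 9 of 30 in the small subunit were higher without overlap and 4 lower. In the large subunit 11 of 46 genes were higher and 12 lower, beside 26.0% and 29.6% of all genes. The shares of higher values in the subunits thus lay closer together by genes than by probes. Differences over 0.5 log2 units were found for 4 members, or 5.26% against 18.5% of all genes, which were Rpl30, Rps15a, Rpl14 and Rpl3l. Leaving out a standard-derived line changed the calls, since the spread then came from 2i-RFP+ and 2i-RFP- alone. Without AFF204#21 16 members were called (21.1% against 45.2% of all genes), and without R1 21 members (27.6% against 36.6%).

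**Figure D2:**
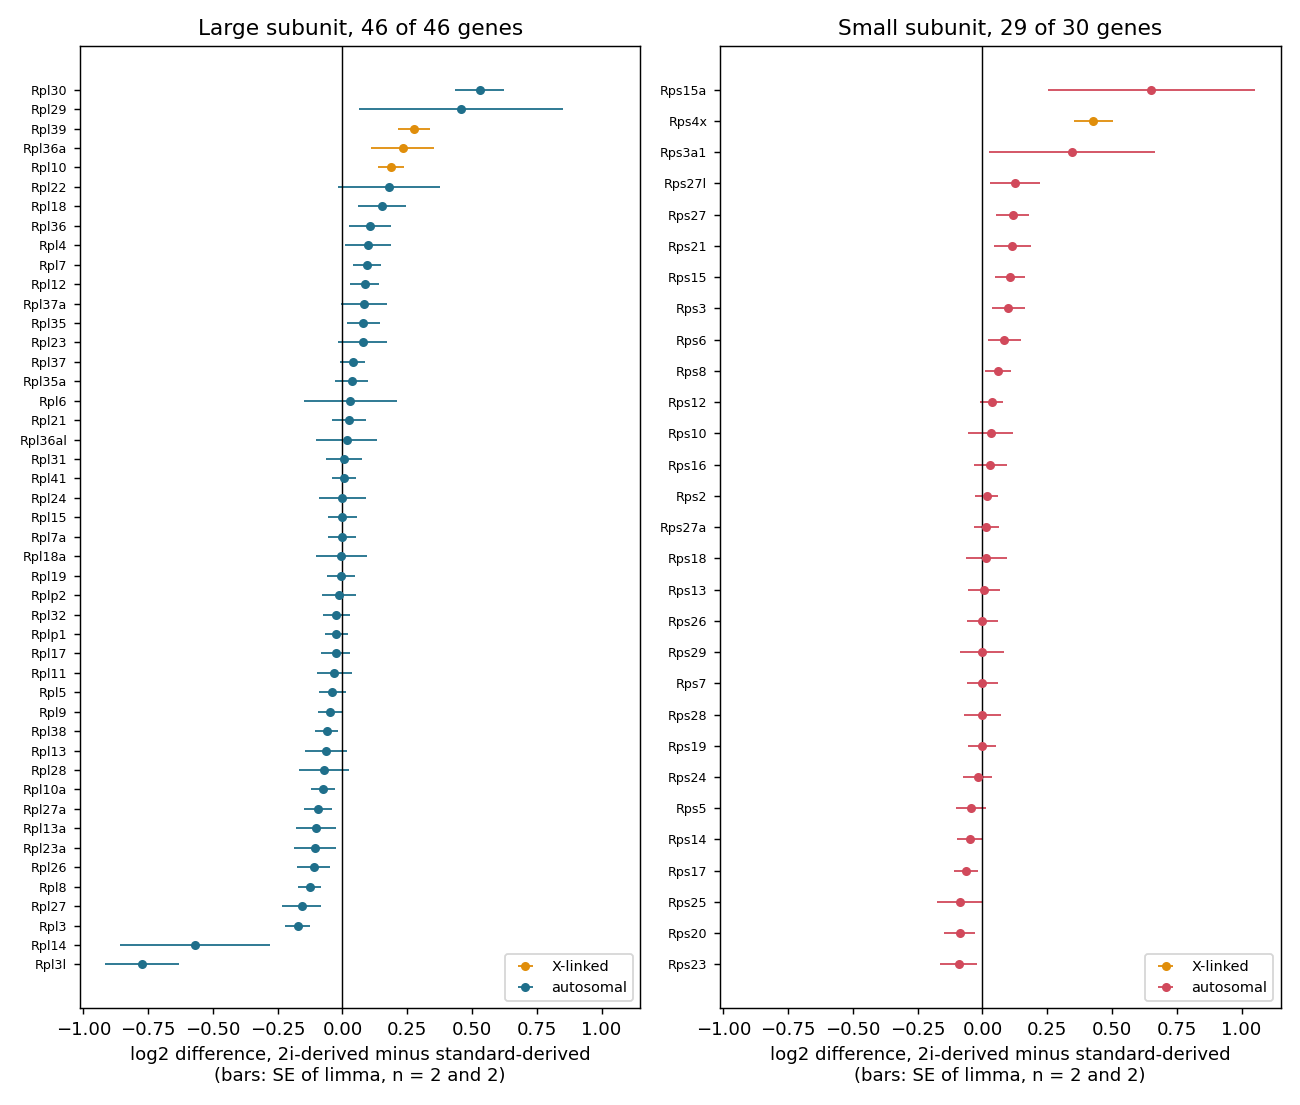
Log2 difference of 75 of the 76 genes, 2i-derived minus standard-derived (horizontal axis, points), with the SE of limma as bars (n = 2 and 2), sorted within each subunit and with X-linked genes in orange. Rpl30 at 0.53, Rps15a at 0.65, Rpl14 at -0.57 and Rpl3l at -0.77 lie farthest from 0, and 51 of the genes drawn lie within 0.1.

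The 4 X-linked members all stood higher in the 2i-derived samples without overlap, though none passed the test. Rps4x encodes a small subunit protein that in human has a Y-linked homologue. It had 15.74 in both 2i-derived samples, against 15.22 in AFF204#21 and 15.40 in R1, a log2 difference of 0.43 ± 0.08 (SE, limma adjusted p = 0.0931). Both standard-derived lines lay below, and a second Rps4x probe gave 0.28. Rpl39, a small basic protein lining the peptide exit tunnel, had 15.10 and 15.06 in 2i-RFP+ and 2i-RFP-, against 14.75 and 14.86 (difference 0.28 ± 0.06, adjusted p = 0.126). Rpl10, the protein whose late joining completes the large subunit, had 15.76 and 15.78, against 15.62 and 15.55 (0.19 ± 0.05, adjusted p = 0.152). The fourth, Rpl36a, had 13.34 and 13.42, against 12.99 and 13.30 (0.23 ± 0.12, adjusted p = 0.357), so its gap to R1 was small. With median scaling the 4 differences were 0.26 to 0.51. Without overlap the sign against each standard-derived line alone is fixed by construction, so only the sizes are of interest. For Rps4x, Rpl39, Rpl10 and Rpl36a they were 0.52, 0.33, 0.16 and 0.39 against AFF204#21. Against R1 they were 0.34, 0.22, 0.22 and 0.08 in the same order.

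The median of the X-linked members, 0.25, was smaller than the median of 0.60 over the 378 X-linked genes that are no members, of which 87.8% lay above 0. The probes of these 4 members had mean intensities of 10232 to 53249, in the range where all passing probes differ less, and the part of brightness in the smaller median was not tested. The 72 autosomal members had a median that rounds to 0 (35 of 72 above 0), beside -0.05 over 10377 autosomal genes. Members on chromosome 11, the autosome where the median of all 884 genes was -0.22, had a median of -0.06 over 7 genes, of which 2 lay above 0. On chromosome 7, which carries 13 members, the median was -0.002 for members and for all 869 genes alike.

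Among large subunit genes on autosomes Rpl30 stood out on the higher side. Rpl30 is a small protein of the large subunit that in mammals also binds selenocysteine insertion elements in mRNAs. It had 12.81 and 12.77 in 2i-RFP+ and 2i-RFP-, against 12.36 in AFF204#21 and 12.17 in R1, a difference of 0.53 ± 0.10 (SE, limma adjusted p = 0.0948), and a second, dimmer probe gave 0.49. Both probes thus placed the 2i-derived samples higher without overlap. Rpl18 had 14.66 and 14.68, against 14.63 and 14.40, a difference of 0.15 ± 0.09 that came mostly from R1 (0.04 against AFF204#21 and 0.27 against R1).

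Several large subunit genes had small negative differences that depended on the scaling. With median scaling in place of quantile normalization the 6 values below shrank to between -0.005 (Rpl8) and -0.082 (Rpl13a), and without normalization the ratios of mean intensity, 2i-derived over standard-derived, were close to 1, with 1.015 for Rpl8, 0.979 for Rpl3 and 0.992 for Rpl27. Rpl3, a core protein near the peptidyl transferase centre, had 15.28 and 15.27 in 2i-RFP+ and 2i-RFP-, against 15.44 and 15.46, a difference of -0.17 ± 0.05 (SE, limma adjusted p = 0.157). Its second probe gave -0.07. Rpl8, which also lies near that centre, had 15.41 and 15.40, against 15.54 and 15.52 (-0.13 ± 0.05, adjusted p = 0.229). For Rpl27 the values were 15.42 and 15.47, against 15.69 and 15.52, and the difference of -0.16 came with one of -0.19 by its second probe. Rpl26, whose protein binds the mRNA of p53 in human cells, had 14.72 and 14.68, against 14.86 and 14.76 (difference -0.11). Rpl13a, known for its release from the ribosome in the GAIT response of human cells to interferon, had 12.60 and 12.63, against 12.76 and 12.67 (difference -0.10), and Rpl27a 14.91 and 14.97, against 15.02 and 15.04 (difference -0.10, with -0.009 and -0.07 by its other probes). These 6 genes were taken from members whose groups do not overlap after quantile normalization, and none passed the test. Before normalization the intensities of Rpl8 were 46324 in 2i-RFP+ and 43371 in 2i-RFP-, against 43187 and 45175, and those of Rpl3 were 41608 and 39942, against 40641 and 42662, so the groups overlapped.

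Rpl14 rested on a dim probe, with 6.36 in 2i-RFP+ and 6.11 in 2i-RFP-, against 7.17 in AFF204#21 and 6.44 in R1. Its difference of -0.57 ± 0.29 (SE, limma adjusted p = 0.345) came mainly from AFF204#21, since the difference against R1 alone was -0.21. The large subunit probes of highest intensity hardly differed. Rplp1, an acidic stalk protein that recruits elongation factors, had 15.89 and 15.88, against 15.89 and 15.93. Rpl41, the shortest ribosomal protein, had 15.85 and 15.86, against 15.83 and 15.87, and Rpl15 15.73 and 15.79, against 15.71 and 15.81. In these 3 genes the values of the groups overlapped.

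Among the 30 small subunit genes only Rps15a and the X-linked Rps4x had differences over 0.4 log2 units. Rps15a had 8.07 in 2i-RFP+ and 8.16 in 2i-RFP-, against 8.02 in AFF204#21 and 6.90 in R1, so its difference of 0.65 ± 0.40 (SE, limma adjusted p = 0.415) was 0.09 against AFF204#21 and 1.22 against R1. Here R1 alone was low, on a dim probe. High intensities in the small subunit belonged to probes of Rps2, Rps12 and Rps27a, the last a fusion of ubiquitin and a ribosomal protein. Rps2, which takes part in decoding, had 15.93 in 2i-RFP+, 2i-RFP- and AFF204#21 and 15.89 in R1. Their differences were 0.02 for Rps2, 0.04 for Rps12 and 0.02 for Rps27a, each with an SE of about 0.05. Rps2 was the brightest gene on 5 of 6 arrays, so quantile normalization gave it the same value there by construction.

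Some ribosomal protein genes have a paralog that makes a variant protein. Rpl3l, which replaces Rpl3 in adult skeletal muscle and heart, had the lowest difference of all members. It had 7.51 in 2i-RFP+ and 7.60 in 2i-RFP-, against 8.27 in AFF204#21 and 8.38 in R1, a difference of -0.77 ± 0.14 (SE, limma adjusted p = 0.097), or -0.72 against AFF204#21 and -0.83 against R1. The only Rpl3l probe was dim, with mean intensities of 217 and 231, against 340 and 350. The partner Rpl3 stood lower only by the smaller amount given above, which depended on the scaling. The Rps27 gene had 14.55 and 14.48, against 14.36 and 14.43 (difference 0.12 ± 0.06), and its p53-inducible paralog Rps27l had 15.05 and 15.06, against 14.81 and 15.06 (0.13 ± 0.10), where AFF204#21 alone was lower. Rpl36al, the autosomal paralog of Rpl36a, had 13.80 and 13.74, against 13.60 and 13.90, and its difference was 0.02 ± 0.12, beside 0.23 for the X-linked gene.

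AFF204#21 and R1 were unlike in a few ribosomal protein genes, with 1 sample of each and thus no test. Of 76 genes 2 were at least 2-fold apart, Rpl29 and Rps15a, or 2.63% against 6.29% of 15284 genes detected in either line. Both were higher in AFF204#21. The strongest case was Rpl29, a heparin-binding large subunit protein. Probe 1580021 of Rpl29 had intensities of 6871, 6804, 6947 and 6490 on the arrays of 2i-RFP+ and 2i-RFP-, against 7440 in AFF204#21 and 294 in R1, a log2 difference of 4.82 between AFF204#21 and R1. The other Rpl29 probe had 22233, 22271, 20514 and 21575, against 21434 and 10209 (log2 difference 1.17). R1 alone was low by both probes, to very unlike degrees.

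The probes of Rps13 also disagreed, in another way. Probe 1470671 of Rps13 had 470, 397, 430 and 416 on the arrays of the 2i-derived samples, against 206 in AFF204#21 and 72 in R1. The 2 bright Rps13 probes stood between 17712 and 23645 on all arrays and gave log2 differences of -0.06 and -0.09 between AFF204#21 and R1. So the dim probe was lower in both standard-derived lines and lowest in R1, by 2.12 log2 units between AFF204#21 and R1, or 1.33 without background correction. Bright probe 1030612 was also lower in both lines, by far less, with 14.39 in both 2i-derived samples, against 14.17 in AFF204#21 and 14.23 in R1. For the other bright probe the groups overlapped. Rps3a1, a small subunit protein at the mRNA exit, had 12.25 and 12.33 in 2i-RFP+ and 2i-RFP-, against 12.41 in AFF204#21 and 11.48 in R1. Rpl22, which has roles in T cell development, had 11.78 and 11.76, against 11.86 and 11.32. In both, R1 was low and the other 3 samples lay close together, so their differences between the groups, 0.35 and 0.18, became -0.12 and -0.09 without R1. That of Rpl29, 0.46, became -0.13.

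The opposite was seen for Rpl31, which lies at the exit tunnel and had a pair of dimmer probes at 3421 and 4139 in 2i-RFP+ and 3658 and 3943 in 2i-RFP-, against 3674 and 3877 in AFF204#21 and 5483 and 5940 in R1, while its bright probe gave a log2 difference of -0.14 between AFF204#21 and R1. The largest differences towards R1 at the gene level were -0.31 for Rpl36a, -0.30 for Rpl36al, -0.25 for Rpl28 and -0.25 for Rps27l. Rpl14 lay on the other side with 0.72. Across the 33 genes with more than 1 passing probe, the probes of 21 agreed to within 0.2 log2 units in the difference between derivation groups, and only those of Rps13 and Rpl29 were over 1 log2 unit apart. R1 was the only sample of strain 129 and had the most passages, and whether strain, passage or a sequence difference under a probe goes with these values was not tested.

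**Figure D3:**
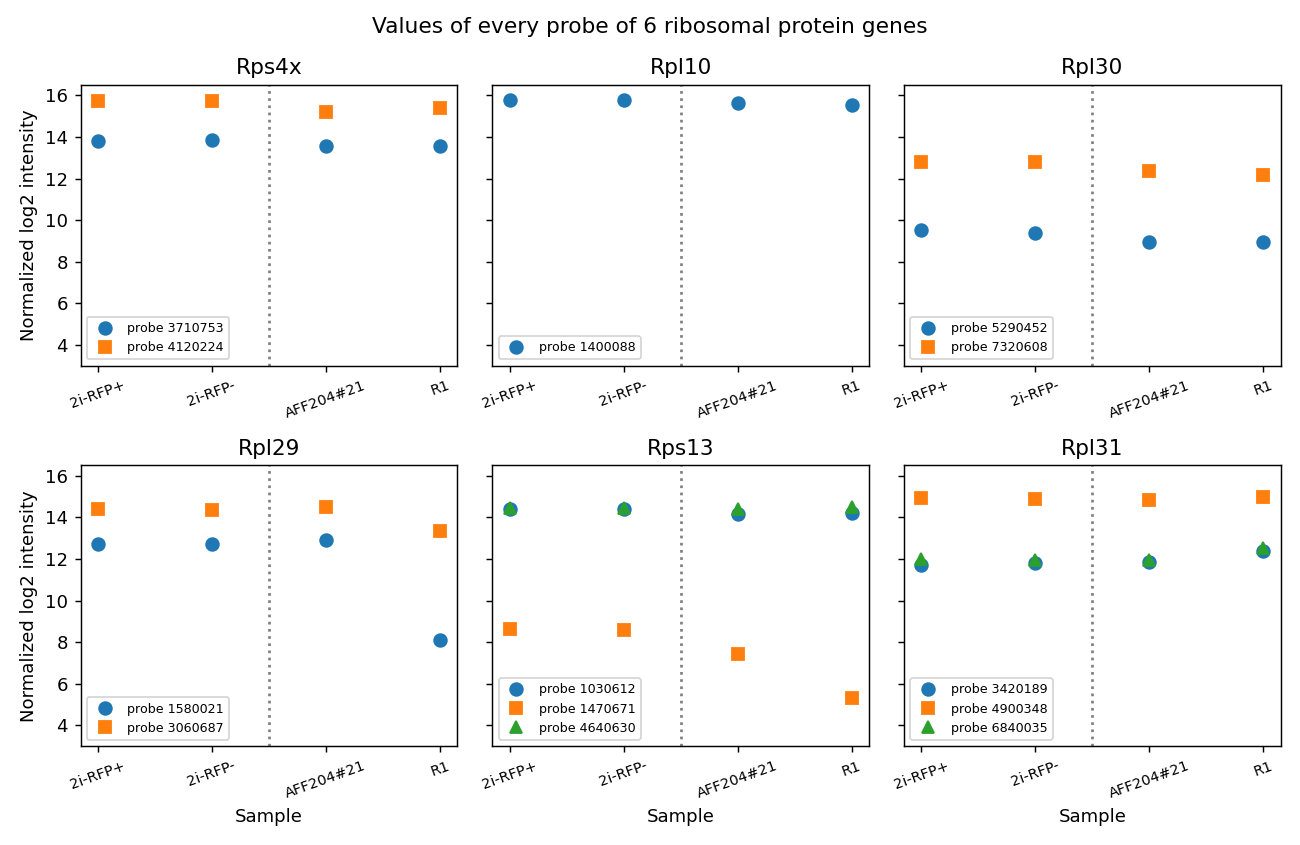
Normalized log2 intensity (vertical axis) of every probe of 6 ribosomal protein genes in the 4 samples (horizontal axis), 1 marker shape per probe, with the 2i-derived samples left of the dotted line. The probes of Rps4x and Rpl30 step down together in both standard-derived lines, whereas both probes of Rpl29 are lowest in R1, at 8.09 and 13.34, and 1 probe of Rps13 is lower in AFF204#21, at 7.44, and lowest in R1, at 5.32.

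2i-RFP+ and 2i-RFP- were almost alike in ribosomal protein genes. With 1 sample of each and no test, 0 of 76 members were at least 2-fold apart (0.0274% of 14580 genes). The root mean square difference over the members was 0.07 log2 units between them, smaller than the 0.11 between repeat arrays of the same sample, which were not averaged. It was 0.19 and 0.20 from 2i-RFP+ and 2i-RFP- to AFF204#21, 0.26 and 0.27 to R1, and 0.27 between AFF204#21 and R1. Over all genes tested the same distances were 0.16, 0.47, 0.48, 0.64, 0.64 and 0.55. Members thus lay closer together than all genes in every pair of samples. Set against single lines, 0 members were at least 2-fold from AFF204#21 (4.3% of all genes), and Rpl29 and Rps15a were at least 2-fold from R1 (7.89% of all genes).

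Above 100 units of intensity, brighter member probes had smaller differences. The 15 member probes with a mean intensity of at least 50000 had a median size of difference of 0.02 log2 units, the 57 between 20000 and 50000 one of 0.06, the 31 between 2000 and 20000 one of 0.11 and the 14 between 100 and 2000 one of 0.46. All passing probes in the same bands had 0.04, 0.07, 0.16 and 0.25. Below 100 units the order did not go on, with 0.07 over 3 member probes and 0.20 over all passing probes. Members were thus close to all passing probes in the bright bands, and larger in the dimmest of the 4. Most members lie in the bright bands and most other genes do not, so the comparison of members with all genes above also compares bright with dim probes. The brightest probe of any array reached 63723 units, and the files mark no probe as saturated, so a compressed difference among the brightest members cannot be told apart from a small one. In the same 4 bands the spread between the beads of a member probe was 9.99%, 17.5%, 19.6% and 30.1% of its mean, over a median of 41 to 44 beads.

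**Figure D4:**
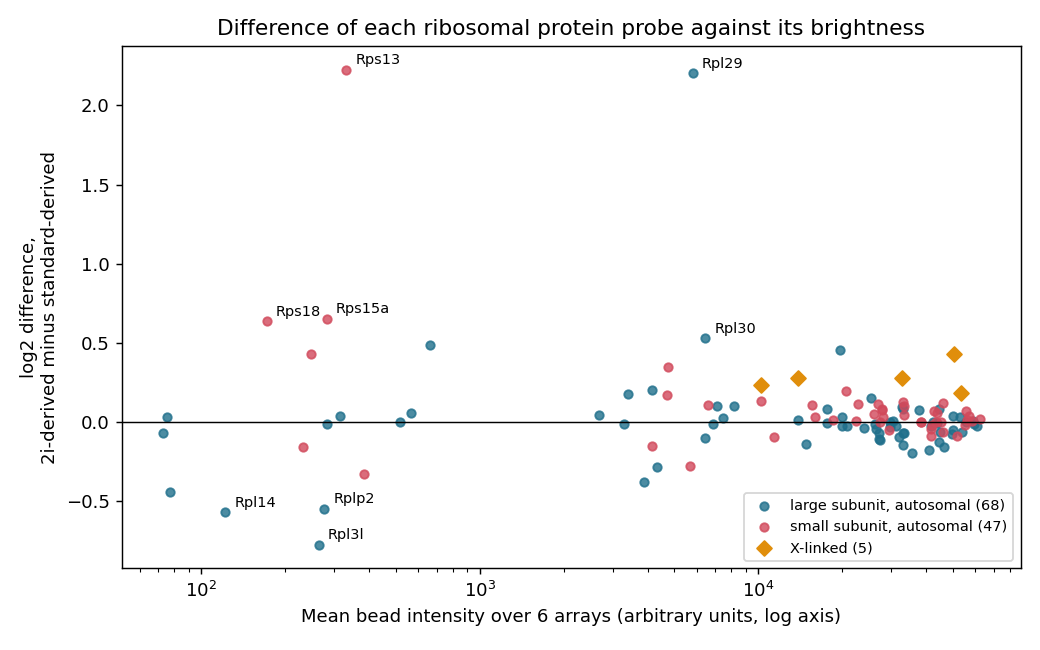
Log2 difference of each of the 120 passing ribosomal protein probes, 2i-derived minus standard-derived (vertical axis), against mean intensity over 6 arrays (horizontal log axis, arbitrary units), with X-linked probes as orange diamonds. Among probes over 20000 units Rps4x at 0.43 and Rpl39 at 0.28 lie farthest from 0, and 1 probe each of Rps13 and Rpl29 lies above 2.

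Genes that work with ribosomal proteins gave 0 calls by limma in each list, higher or lower, where 0.165% of all genes were called. Of 3 fusion or ribosome-bound proteins, Fau, whose product carries Rps30, had 14.38 and 14.42 in 2i-RFP+ and 2i-RFP-, against 14.29 and 14.28 (difference 0.11). The scaffold Rack1 had -0.06. Of 15 elongation factors and other genes with TOP mRNAs 1 had an unadjusted p under 0.05, the translocase Eef2, with 12.03 and 12.02, against 11.72 and 11.51 (difference 0.41, adjusted p = 0.147). The next by p were Pabpc1, which binds poly(A) tails (-0.18), and the initiation factor subunit Eif3f (0.13). Eef1a1, which delivers tRNAs, had -0.02 and the nucleolar chaperone Npm1 0.0. Of 27 initiation factors 5 had an unadjusted p under 0.05, led by X-linked Eif2s3x (0.60), a subunit of eIF2, Eif2s2 (-0.28) and Eif2b4 (-0.42).

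Upstream, 9 genes of RNA polymerase I and ribosomal DNA transcription had a median log2 difference of -0.12, led by Taf1c (-0.74), a subunit of the promoter selectivity factor, with Polr1b at -0.27 and Rrn3 at -0.21, and 1 had an unadjusted p under 0.05. The 37 ribosome assembly factors had a median of -0.08, with 26 of 37 below 0, and 8 of them had an unadjusted p under 0.05. First by p were nucleolin Ncl (0.48), the kinase Riok1 (0.76) and Imp3 (-0.44), of which Ncl and Riok1 had the opposite sign to the list's median. Of 19 regulators Myc, which drives ribosome production, had 5.61 and 5.58 in 2i-RFP+ and 2i-RFP-, against 6.12 and 6.33 (difference -0.63, adjusted p = 0.137), by a dim probe, while Mlx had -0.55 and Trp53 -0.25, and 2 had an unadjusted p under 0.05. The 72 mitochondrial ribosomal protein genes, which build a separate ribosome, had a median of -0.05 and 13 with an unadjusted p under 0.05, with Mrpl10 at -0.65, Mrpl35 at -0.97 and Mrpl46 at -0.32. None of these genes passed the test. The counts at an unadjusted p under 0.05 stand beside a share of 20.9% over all genes.

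Feeder fibroblasts also express ribosomal protein genes, and fewer feeder cells and less RNA per cell cannot be told apart in these samples. Of 14 feeder markers 13 were measured, with summed intensities of 20183 in 2i-RFP+ and 17380 in 2i-RFP-, against 20101 in AFF204#21 and 23750 in R1, a median log2 difference of -0.24, and Tagln (-0.68), Col1a1 (-0.46) and Acta2 (-0.49) first by p. Of 10 endoderm markers 5 were measured, with sums of 2471 and 2246, against 3300 and 3929, led by Lama1 (-1.70), Col4a1 (-0.67) and Sox7 (1.09). The stem cell markers summed to 96816 and 94257, against 90915 and 98122, and Klf4 (-0.87), Nanog (0.37) and Sox2 (0.26) were first by p. The part of such cells in the values of ribosomal protein genes was not tested.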

How the data were processed

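Total RNA of 4 samples was hybridised to 6 arrays, biotin-labelled, per the labels. The deposited bead intensity of a probe is its mean signal on 1 array, summarised with GenomeStudio 1.0.6 without normalization, per the file headers. Each probe also has a deposited detection score, a fraction from 0 to 1, and the detection p used here is 1 minus that fraction. The deposited bead counts and the bead standard deviations gave the spread between beads. The deposited log2 table was used as an alternative. No source used here gives its method. Its values match quantile-normalized log2 intensities averaged for each target name (Pearson r of 1.0 across 31458 targets, 95% of differences within 0.0017, medians of 5.91, 5.91, 5.91 and 5.92).

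The neqc function of limma 3.58.1 (R 4.3.3) did the background correction, with detection p as input and an offset of 16, then the quantile normalization and the log2 transform. Arrays of a sample were averaged. Probes with a detection p under 0.05 in at least 2 of 4 samples were kept, each gene took its brightest such probe, and 14569 genes were tested two-sided in limma (lmFit, then eBayes with trend), with Benjamini-Hochberg adjustment over all genes. The procedure was run on simulated data that gave both groups the same spread. In the real data AFF204#21 and R1 lay farther apart than 2i-RFP+ and 2i-RFP- (root mean square difference 0.55 against 0.16 log2 units over all genes). The simulation therefore does not show how the test behaves with such unequal spreads. Symbols, chromosomes and promoters come from RefSeq tables of GRCm38.p6, and all 76 member names matched. The files name no build.

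The members and gene lists were chosen with earlier results of these data known. Genes given values are the 8 members with the largest difference in each direction among those whose groups do not overlap, X-linked members, the 4 brightest of each subunit, paralog pairs, members whose probes disagree by over 1 log2 unit, the 4 largest differences each way between AFF204#21 and R1, and up to 3 genes of each list by p. Rpl31 was added after its values were seen, and 2 genes that the rule names are not reported here. Alternatives changed background correction, scaling, filters, probes per gene, spread, samples and genes. The number of arrays and signal over background limit the precision.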

Additional observations from a re-analysis of the deposited data

How the results depend on the processing

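By limma, 0 ribosomal protein genes were called under all 12 alternatives that kept the 4 samples apart or merged both 2i-derived samples, and 0 without 2i-RFP+ or 2i-RFP-, with 2 to 15 member genes or probes at an unadjusted p under 0.05. Leaving out 1 sample gave 0 to 21 called members, the higher counts being 16 without AFF204#21 and 21 without R1. Of all genes 24 were called, against 6 without background correction, 0 with normexp on all probes, 0 with median scaling, 12 with the deposited log2 table, 2 with a stricter detection filter, 48 with every probe on its own, 0 with a robust trend, 0 with both 2i-derived samples as 1, 0 without X- and Y-linked genes, and 0 to 6589 leaving out 1 sample. The large subunit median of -0.001 was 0.057 with median scaling, -0.024 in the deposited table, -0.017 with the mean of probes and -0.04 to 0.03 leaving out 1 sample. The small subunit median of 0.015 was 0.088 with median scaling, 0.096 without bright probes (49 members left in all) and 0.003 to 0.037 leaving out 1 sample. The 2 genes at least 2-fold apart between AFF204#21 and R1 became 1 without background correction, 1 with normexp, 1 in the deposited table and 4 probes on their own. For single genes, some alternatives, such as a robust trend or both 2i-derived samples as 1, cannot change the difference. Its direction was kept there by construction. Of 311 values for 20 genes, 283 kept their direction and side of the threshold, and 24 passed it without AFF204#21 or R1. The other 4 changed sign, namely Rpl29 (-0.128 to 1.042 leaving out 1 sample), Rps3a1 (-0.12 to 0.814), Rpl22 (-0.092 to 0.45) and Rps13 (-0.04 to 0.054), where the values without R1 were -0.128, -0.12 and -0.092 and that of Rps13 without AFF204#21 was -0.04. The causes of these changes were not tested, apart from the smaller set of genes or samples in some fits. No paired analysis was possible because the labels give no shared replicate numbers. Dim probes and the small number of arrays limit what could be detected.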

Other observations

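Some ribosomal protein genes carry older target names on the array and lay outside the naming rule. Rps9, a small subunit protein, had 4 passing probes with log2 differences of -0.04, 0.25, -0.08 and 0.30 between 2i-derived and standard-derived samples, and Rpl34 had 0.03. Rplp0, the stalk protein often used as a reference gene, had 11.42 and 11.32 in 2i-RFP+ and 2i-RFP-, against 11.80 and 11.46 by its brighter probe (difference -0.26). A dim Rplp0 probe had 6.61 and 6.76, against 6.55 in AFF204#21 and 4.63 in R1. Rps23rg1, named as a gene derived from Rps23, had 8.43 and 8.51, against 7.57 in AFF204#21 and 4.72 in R1. Both of these dim probes were lowest in R1, as were both probes of Rpl29 and 1 probe of Rps13. None passed the threshold of limma's test over all probes (adjusted p of 0.112 to 0.991 over the 13 probes whose current symbol starts with Rpl or Rps and whose array name does not).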
